A study of Homo sapiens with 4 samples.

Results

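The ATP-binding cassette (ABC) family was examined in the human hepatocellular carcinoma line Huh-7 after treatment with transforming growth factor beta (TGF-beta). Members were the genes whose platform symbol begins with ABC, a subfamily letter from A to G and a number, taken from probe sets that name a single gene. The rule gave 36 genes out of 12165 measured, carried by 59 probe sets, and each gene was read from its brightest probe set. Subfamily A had 10 members, B 6, C 9, D 3, E 1, F 3 and G 4. Of the 36 symbols, 2 (ABCA11P and ABCC6P2) are those of pseudogenes.

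There were 2 arrays of TGF-beta-treated Huh-7 cells and 2 arrays of untreated Huh-7 cells, all from total RNA of a single established line grown in medium with 10% heat-inactivated bovine serum. Treated cells were harvested after 48 h with TGF-beta, for which the sources used here state no dose. Within a group the labels tell arrays apart only by a number and do not say whether separate cultures were used. The p-values therefore reflect the spread of these arrays alone, which may be technical. The values are deposited probe set intensities, and a difference is the mean log2 intensity with TGF-beta minus that without it. Each test came from a limma fit over all 12165 genes with Benjamini-Hochberg adjustment, and a gene was called at an adjusted p under 0.05.

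ABC proteins share a nucleotide-binding domain that hydrolyses ATP, and most couple it to membrane-spanning domains that move a substrate across a membrane. In the hepatocyte they sort bile salts, phospholipid, sterol and conjugated bilirubin into bile, return conjugates to the blood, load lipoproteins with cholesterol, and pump out foreign compounds. Several of the drug pumps are known for multidrug resistance in carcinoma cells. Members of subfamilies E and F lack membrane-spanning domains and work at the ribosome.

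The cells carried the hepatocyte products of the line. AFP (alpha-fetoprotein) gave 25420 and 24706 intensity units with TGF-beta against 23914 and 24139 without. Of 15 measured hepatocyte markers 2 were called, where 1.22% of all genes were, with 8 positive and 7 negative differences. TTR, the carrier of thyroid hormone and retinol, fell to 1186 and 1088 with TGF-beta against 1797 and 1726 without (log2 difference -0.63, limma adjusted p = 0.0470), and APOA1, described with the lipoprotein genes, rose. Summed fibroblast markers lay at 7051 and 7565 with TGF-beta against 7517 and 6993 without, nearly all of it LUM (lumican), and 0 of 8 were called. Of 6 leukocyte markers CD14 was called, at 146 and 157 against 75.6 and 75.4, while PTPRC, which defines leukocytes, was near the dim end at 30.2 and 30.0 against 31.7 and 28.3. None of 7 endothelial markers was called, with summed intensities of 221 and 214 against 229 and 229. The part of these genes in the results was not tested. Of 19 measured early TGF-beta targets 13 had positive and 6 negative differences, with a median of 0.14. THBS1 (thrombospondin 1), BAMBI (a pseudoreceptor of the TGF-beta family) and JUNB (an AP-1 subunit) passed an unadjusted p under 0.05 in limma as higher, at 0.73, 0.40 and 0.39, while the feedback inhibitors SMAD7, SKIL and PMEPA1 stood at -0.028, 0.058 and -0.23. None of the 19 was called from its brightest probe set. When all probe sets were tested, 0.855% passed, and among the 5 of THBS1 only a dimmer one did. It stood at 113 and 106 with TGF-beta against 49.2 and 57.5 without (log2 difference 1.05, limma adjusted p = 0.0233). The other probe sets of THBS1 had limma adjusted p from 0.0649 to 0.731. With an intensity trend 1 of the 19 targets was called, where 5.06% of all genes were.

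No ABC gene was called after TGF-beta: 0 of 36 passed an adjusted p under 0.05, where 1.22% of all genes did. At an unadjusted p under 0.05 in limma, 10 members passed, 6 higher (9.35% of all genes were) and 4 lower (8.60% of all genes were). Together these are 27.8% of the family, against 18.0% of all genes. The 6 higher were ABCC10, ABCC1, ABCD4, ABCF2, ABCC5 and ABCF3, and the 4 lower were ABCG2, ABCA5, ABCB1 and ABCA7. Differences over the family ran from -0.57 to 0.59, with a median of 0.00058 beside -0.0062 over all genes, and 18 members were positive and 18 negative. In bulk samples of this kind, fewer cells holding a transcript and less of it per cell cannot be told apart.

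**Figure D1:**
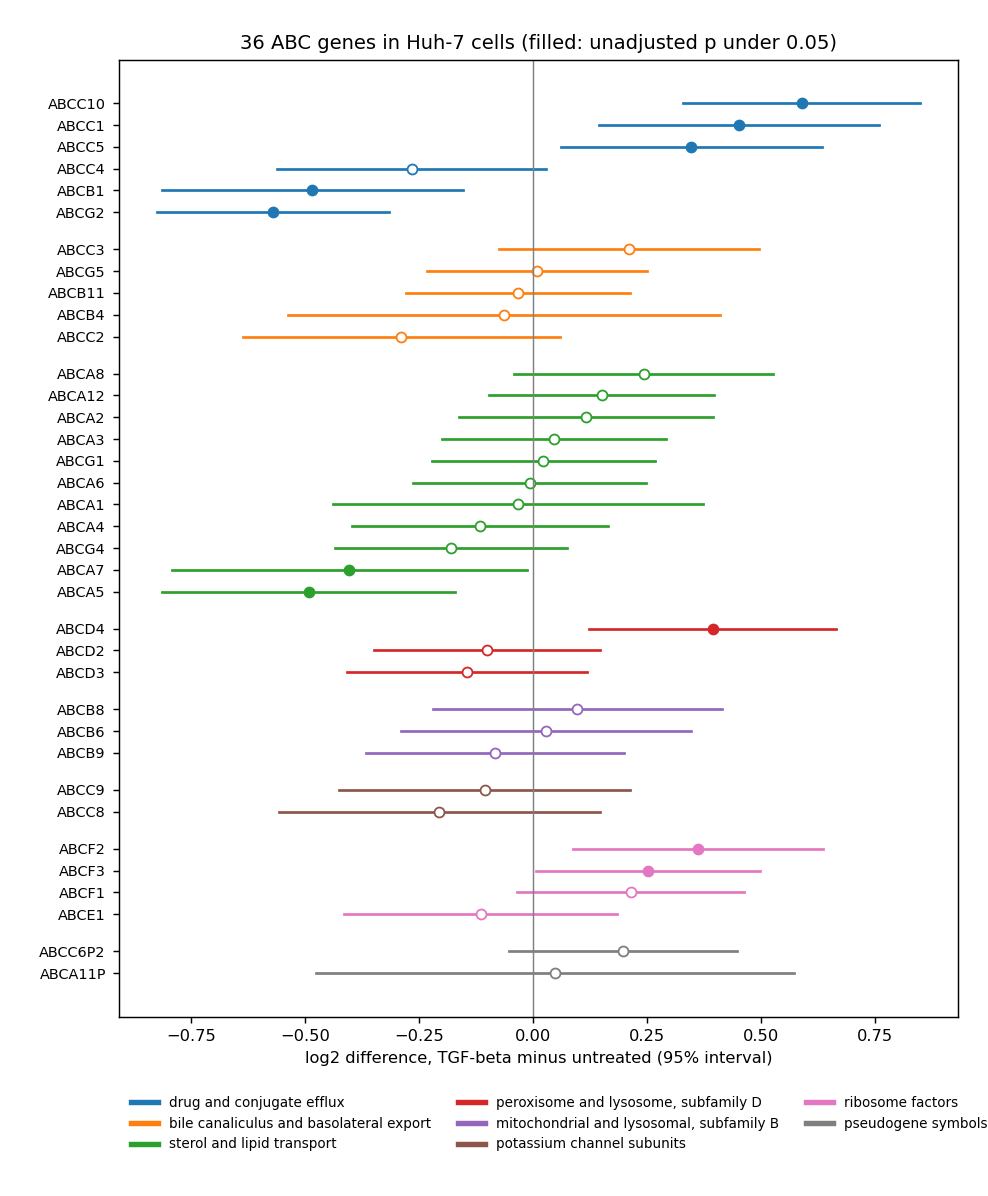
Log2 difference (TGF-beta minus untreated) of each of the 36 ABC genes with its 95% interval, grouped by role. Filled points are the 10 genes past an unadjusted p of 0.05, led by ABCC10 at 0.59 and ABCG2 at -0.57. None passed after adjustment over all genes.

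The number of calls depended on single arrays. Without untreated array 1, 4 members were called (ABCC10 higher and ABCG2, ABCB1 and ABCA5 lower), where 2.84% of all genes were, and without untreated array 2 only ABCC1 was, as higher, where 4.30% of all genes were. Without either TGF-beta array 0 members were called, as was the case for all genes. The smallest difference among the 149 called genes was 0.60 on the log2 scale, a size no ABC gene reached.

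The members are described below by role, in groups formed with their values known. Among 6 pumps of drugs and conjugates (ABCB1, ABCC1, ABCC4, ABCC5, ABCC10 and ABCG2), the 2 treated arrays stood wholly above or wholly below the 2 untreated ones in all 6. Such separation held for 20 of the 36 members and for 49.1% of all genes. Because the groups were formed with values known, the 6 of 6 is not read as a trait of the pumps. The pumps did not share a direction, with 3 higher and 3 lower.

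ABCC10 encodes an exporter of conjugates and of taxane drugs. It had intensities of 200.4 and 213 with TGF-beta against 144 and 131 in untreated cells. The groups did not overlap, and the gap between them was wider than the gap within either. Mean log2 intensity was 7.69 ± 0.064 with TGF-beta and 7.10 ± 0.096 without (SD, n = 2 each). The log2 difference was 0.59 ± 0.11 (SE), with a 95% interval of 0.33 to 0.85, and the limma adjusted p of 0.0551 was the lowest of the family. Its other, dimmer probe set gave 0.18 ± 0.14 (SE), with overlapping groups, and the mean of both lowered the difference to 0.38.

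ABCG2, known as the breast cancer resistance protein, exports urate, sulphated conjugates and many drugs. It gave 79.6 and 76.7 with TGF-beta against 111 and 122 in untreated cells, again without overlap. Mean log2 intensity was 6.29 ± 0.038 with TGF-beta and 6.86 ± 0.094 without (SD, n = 2 each). The log2 difference was -0.57 ± 0.11 (SE), with a 95% interval of -0.83 to -0.31 and a limma adjusted p of 0.0553. ABCG2 has a single probe set here. When every gene was represented by the mean of its probe sets it was the 1 ABC gene called, with the same difference.

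ABCB1 encodes P-glycoprotein, the drug efflux pump of the canalicular membrane. Its intensities were 336 and 315 with TGF-beta against 401 and 516 in untreated cells. Both treated arrays lay below both untreated ones, but the untreated pair differed by 0.36 on the log2 scale, more than 89.6% of genes did. The log2 difference was -0.48 ± 0.14 (SE, adjusted p = 0.132), and it was -0.30 without untreated array 2 and -0.67 without untreated array 1. A further probe set, which names both ABCB1 and ABCB4 and so is no member, gave 400.5 and 418 with TGF-beta against 468 and 504 in untreated cells, at -0.25 ± 0.11 (SE). It had the same direction at a smaller size.

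ABCC1, which exports glutathione conjugates, had intensities of 69.7 and 75.5 with TGF-beta against 47.9 and 58.7 in untreated cells. Its log2 difference was 0.45 ± 0.13 (SE, adjusted p = 0.131), and the dimmer probe set gave 0.16 ± 0.10. ABCC5, an exporter of cyclic nucleotides and nucleotide analogues, had 156 and 131 against 111 and 113, a difference of 0.35 ± 0.12 (SE, adjusted p = 0.201). ABCC4, which exports cyclic nucleotides and bile acids across the basolateral membrane, had 362 and 405 with TGF-beta against 425 and 498 without. Its 95% interval of -0.56 to 0.028 included no change.

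**Figure D2:**
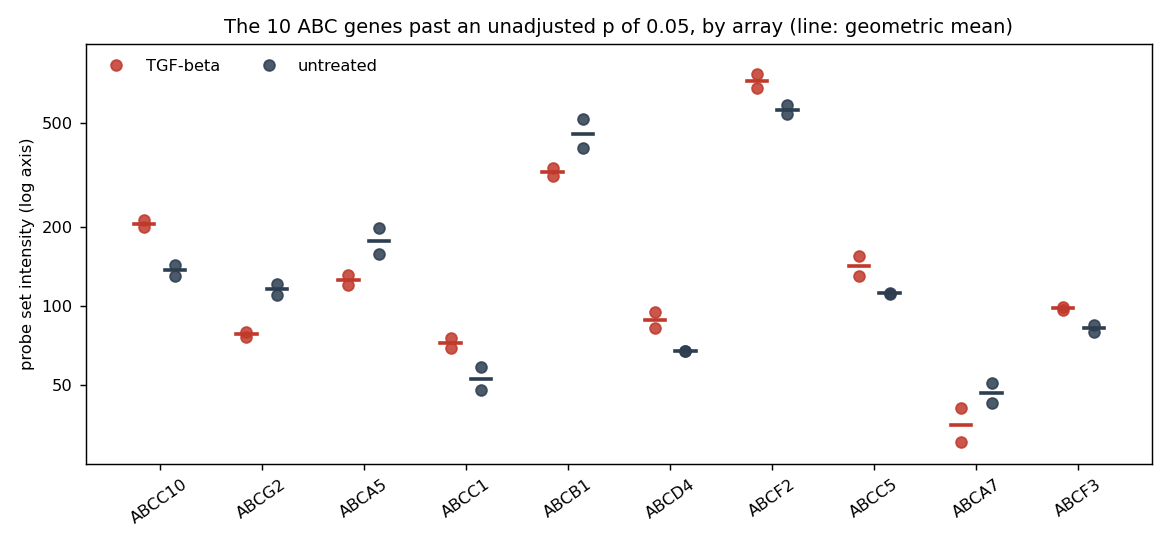
Probe set intensity on a log axis for the 10 ABC genes past an unadjusted p of 0.05, with each array as a point and the geometric mean as a line, TGF-beta left of untreated. In all 10 the groups do not overlap, which the choice by p favours, where 49.1% of all genes do not overlap. The pair of untreated points is wide for ABCB1 (401 and 516) and close for ABCD4 (67.8 and 67.5).

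The upstream sequences of ABCC10, ABCG2 and ABCB1 are shown because these pumps had the smallest p in each direction or, for ABCB1, the drug efflux role for which the family is best known. Each run holds the 250 bases before the most downstream start that RefSeq lists for the gene (GRCh38.p14), written 5′ to 3′ on the gene's strand at chr6:43427613-43427862 (plus strand, ABCC10), chr4:88158640-88158889 (minus strand, ABCG2) and chr7:87600885-87601134 (minus strand, ABCB1). Capitals mark matches, on either strand, to the GC box of SP1 (GGGCGG), the CCAAT box and the E-box (CACGTG). They also mark an AP-1 pattern with any base at its centre (TGANTCA), the SMAD palindrome (GTCTAGAC) and the short SMAD box (CAGAC).
ABCC10: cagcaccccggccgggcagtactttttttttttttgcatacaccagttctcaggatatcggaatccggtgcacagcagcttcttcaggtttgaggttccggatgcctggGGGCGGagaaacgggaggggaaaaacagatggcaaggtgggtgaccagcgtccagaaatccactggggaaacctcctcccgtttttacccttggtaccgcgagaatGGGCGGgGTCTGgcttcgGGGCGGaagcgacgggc
ABCG2: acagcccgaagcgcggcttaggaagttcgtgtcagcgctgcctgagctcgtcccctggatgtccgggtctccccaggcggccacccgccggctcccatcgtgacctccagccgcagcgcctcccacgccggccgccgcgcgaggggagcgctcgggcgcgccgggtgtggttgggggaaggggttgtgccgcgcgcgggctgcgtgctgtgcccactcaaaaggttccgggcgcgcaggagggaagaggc
ABCB1: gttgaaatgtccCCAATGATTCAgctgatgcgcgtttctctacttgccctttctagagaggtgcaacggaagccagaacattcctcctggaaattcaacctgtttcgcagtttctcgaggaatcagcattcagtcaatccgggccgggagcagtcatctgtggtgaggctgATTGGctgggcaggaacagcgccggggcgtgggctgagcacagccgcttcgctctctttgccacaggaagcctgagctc
The ABCC10 window holds GGGCGG 3 times and CAGAC once, on the opposite strand. The ABCB1 window holds CCAAT 2 times, once on each strand. It holds the AP-1 pattern once, as TGATTCA, which shares a base with the first CCAAT. The ABCG2 window matches none of the 6 and has a GC content of 73.6%, against 58.0% for ABCC10 and 55.6% for ABCB1.

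Over the family, 27 members have a window in the RefSeq table. GGGCGG was found in 17 of them (63.0%, against 58.4% of 9711 measured genes with a window) and CAGAC in 11 (40.7%, against 37.2%). CCAAT was in 7 (25.9%, against 34.9%), CACGTG in 4 (14.8%, against 7.86%) and TGANTCA in 3 (11.1%, against 5.17%). The SMAD palindrome was in 0 of 27, and in 0.154% of all windows. These matches describe letters in a window and were not tested.

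Exporters of bile components had 0 of 5 members past an unadjusted p of 0.05 in limma, where 18.0% of all genes passed. The group is small, and its difference from that share was not tested. ABCC2, which secretes conjugated bilirubin into bile, had intensities of 318 and 302 with TGF-beta against 435 and 328 in untreated cells. The treated arrays lay lower, but untreated array 2 stood close to them, and the log2 difference of -0.29 ± 0.15 (SE) had a 95% interval of -0.64 to 0.060. ABCC3, which returns conjugates to the blood, had 471 and 536 with TGF-beta against 461 and 409 without, at 0.21 ± 0.12 (SE). The other of its brighter probe sets gave -0.019, so the direction rests on the one used. ABCB4, the phosphatidylcholine floppase of bile, ran from 42.3 to 64.3 with TGF-beta and from 49.2 to 60.3 without, and its interval of -0.54 to 0.41 was among the widest of the family. The bile salt export pump ABCB11 and the sterol half-transporter ABCG5 were dim, with no intensity above 25.1 and 28.7. Their intervals were -0.28 to 0.21 and -0.23 to 0.25, and a dim probe set has little room to fall.

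Lipid transporters of subfamilies A and G held 2 of 11 members past an unadjusted p of 0.05, both lower (18.2%, near the 18.0% of all genes). ABCA5, a lysosomal lipid transporter, gave 131 and 121 with TGF-beta against 158 and 199 in untreated cells, a log2 difference of -0.49 ± 0.14 (SE, adjusted p = 0.119). ABCA7, which moves phospholipid to apolipoproteins, was dimmer, at 41.2 and 30.3 against 42.9 and 50.9, with treated array 1 just below untreated array 1. Its log2 difference of -0.40 ± 0.17 (SE, adjusted p = 0.265) went to -0.18 without TGF-beta array 2 and to -0.22 with an offset of 32 added before the logarithm.

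ABCA1, the transporter that starts high-density lipoprotein formation by loading APOA1, gave 565 and 609 with TGF-beta, inside the range of 499 and 721 in untreated cells. The untreated arrays differed by 0.53 on the log2 scale, more than 96.8% of genes did, and the difference of -0.032 had a 95% interval of -0.44 to 0.37. ABCG1, its partner in sterol efflux, gave 47.2 and 46.7 with TGF-beta against 47.3 and 45.1 without, an interval of -0.22 to 0.27. Among the rest, ABCA8 stood at 0.24, ABCA12 (a skin lipid transporter) at 0.15, ABCA2 at 0.12, ABCA3 (a surfactant lipid transporter of the lung) at 0.046, ABCA6 at -0.0070, ABCA4 (a retinoid transporter of the retina) at -0.12 and ABCG4 at -0.18, with adjusted p from 0.346 to 0.985. Of these, ABCA4, ABCA6, ABCA8, ABCA12 and ABCG4 lay below the lower quartile of all genes by mean log2 intensity, which corresponds to an intensity of 31.8.

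In subfamily D, ABCD4, which takes part in the export of cobalamin from the lysosome, had intensities of 95.6 and 82.7 with TGF-beta against 67.8 and 67.5 in untreated cells. The log2 difference was 0.39 ± 0.12 (SE, adjusted p = 0.134), and its other, dim probe set gave -0.042 ± 0.10. ABCD3, an importer of fatty acyl-CoA into the peroxisome, gave 3973 and 3639 with TGF-beta against 4027 and 4388 without. The treated arrays were both lower by a small amount, with a log2 difference of -0.14 and an interval of -0.41 to 0.12. ABCD2, an importer of very long-chain acyl-CoA, was dim on every array, with 22.9 at most.

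The 3 organelle members of subfamily B had overlapping groups, where 49.1% of all genes did not overlap. ABCB6, a porphyrin-linked half-transporter, gave 168 and 133 with TGF-beta against 151 and 143 without. ABCB8, of the inner mitochondrial membrane, and ABCB9, a lysosomal peptide transporter, had differences of 0.098 and -0.083. Both lay below the lower quartile of all genes by mean log2 intensity, where 35.3% of genes did not overlap. The sulfonylurea receptor subunits of ATP-sensitive potassium channels, ABCC8 and ABCC9, stood at -0.21 and -0.11, with overlapping groups.

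The ribosome factors gave 3 positive values and 1 negative value. ABCF2 had intensities of 679 and 769 with TGF-beta against 586 and 539 in untreated cells, at 0.36 ± 0.12 (SE, adjusted p = 0.166). Its second brightest probe set gave 0.079 ± 0.15, with overlap, and the mean of all 5 probe sets gave 0.14. ABCF3 had 97.3 and 99.3 against 84.9 and 80.2, at 0.25 ± 0.11 (SE, adjusted p = 0.269). ABCF1, which binds the initiation factor that delivers the first methionine, had 702 and 713 against 587 and 632, with an interval of -0.035 to 0.46. ABCE1, which splits ribosomes after termination, had 1266 and 1493 against 1582 and 1401, with an interval of -0.41 to 0.19, and its other bright probe set gave 0.080.

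Both pseudogene symbols are uncertain. The probe set of ABCC6P2 was bright, at 2096 and 2243 with TGF-beta against 1852 and 1928 without (log2 difference 0.20 ± 0.11, SE). This pseudogene is a near copy of part of ABCC6, a hepatocyte transporter not analysed here, so the signal cannot be assigned to either. ABCA11P ranged from 70.4 to 105 with TGF-beta and from 69.9 to 99.1 without, so its arrays overlapped fully.

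Several members were read by more than 1 probe set. Of 36 genes, 14 had several, with 23 further probe sets, of which 12 had the sign of the one used and 11 the opposite sign. Of the 23, 14 lay below the lower quartile of brightness. When all probe sets were tested, 0 of the 59 ABC probe sets passed an adjusted p under 0.05 (0.855% of all did), and 11 passed an unadjusted p under 0.05 in limma (16.3% of all did).

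**Figure D3:**
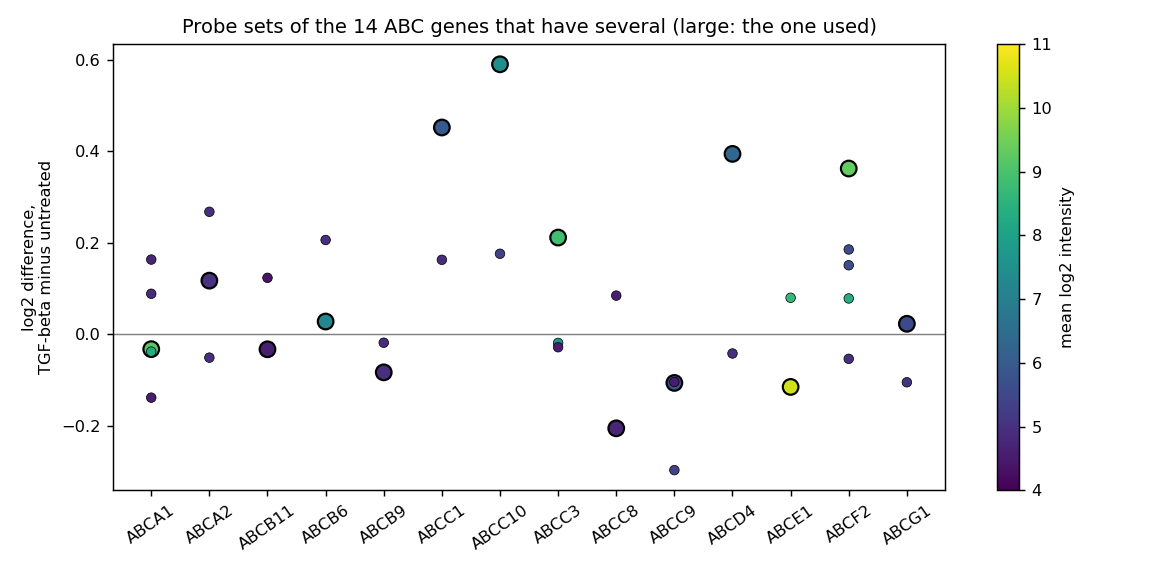
Log2 difference (TGF-beta minus untreated) of every probe set of the 14 ABC genes that have several, coloured by mean log2 intensity, with the probe set used drawn large. The dimmer probe sets of ABCC10 and ABCC1 lie at 0.18 and 0.16, below the ones used. For ABCA1 and ABCE1, the probe sets straddle 0 when the one used is included.

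Over all genes, dim ones rarely passed an unadjusted p under 0.05 in limma, and the family was no exception. The 11 members below the lower quartile held 0, near the 2.83% of equally dim genes that passed. The other 25 held all 10 (40.0%, against 23.0% of genes above that quartile), a difference that was not tested.

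**Figure D4:**
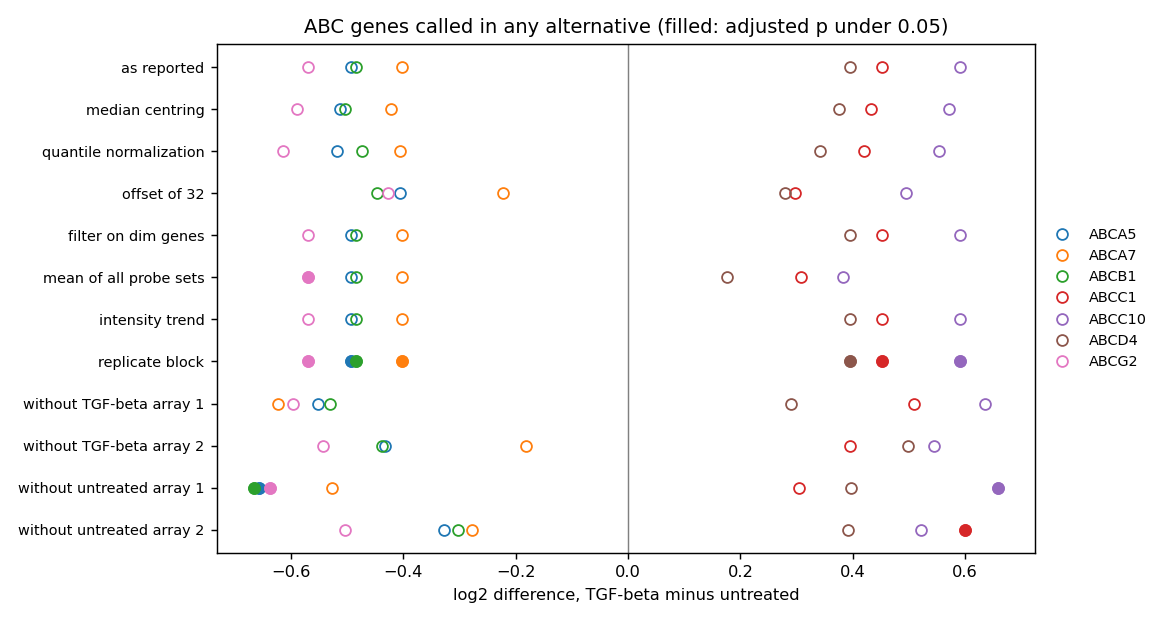
Log2 difference (TGF-beta minus untreated) under each alternative for the 7 ABC genes called in at least 1 of them, with filled points for an adjusted p under 0.05. Every point keeps its side of 0, which the choice of genes by a call in these same alternatives favours. Filled points occur with the mean of all probe sets (1 gene), with the replicate number as a block (7), and without 1 or the other untreated array.

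Related genes were read from 10 lists. These hold genes that work with ABC proteins, except for the list of early TGF-beta targets described above. Over the lists 177 of 223 genes were measured. TGF-beta raised 3 of them and lowered 3, where 1.22% of all genes were called in either direction, and the median over the lists was 0.021. The lists were chosen with earlier results known, and the counts for each are small. The list of sterol efflux and lipoproteins had 2 higher and 0 lower among 25. SCARB1, the receptor that takes cholesterol from high-density lipoprotein, rose to 282 and 332 with TGF-beta against 177 and 153 in untreated cells (1.86-fold, adjusted p = 0.0354). Its second probe set also separated, at 0.41. APOA1, the protein that accepts sterol from ABCA1, rose to 3484 and 3095 against 1903 and 2020 (1.67-fold, adjusted p = 0.0378), beside an ABCA1 whose groups overlapped.

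Regulators of transporter genes had 1 called of 16, SREBF1, a transcription factor of lipid synthesis, which rose to 74.7 and 61.5 against 38.4 and 39.6 (adjusted p = 0.0403). Enzymes of glutathione and conjugation, whose products the C subfamily exports, had 2 lower of 22. SULT2A1, a sulphotransferase of steroids and bile acids, fell to 538 and 438 against 809 and 843, and GSTA4, a glutathione transferase, fell to 1718 and 1557 against 2565 and 2497. The other probe set of SULT2A1 gave -0.23.

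KCNJ8, the pore that pairs with ABCC9 in ATP-sensitive potassium channels, fell to 359 and 409 with TGF-beta against 719 and 763 in untreated cells. The log2 difference was -0.95 ± 0.12 (SE, adjusted p = 0.0235), its other probe set gave -0.93 ± 0.12, and the call held in 9 of 11 alternatives, being lost without either TGF-beta array. ABCC9 itself had 57.5 and 48.5 against 61.8 and 52.3. Its other probe sets gave -0.30, with overlapping groups, and -0.10, dim but with both treated arrays lower. The difference between the partners was not tested.

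**Figure D5:**
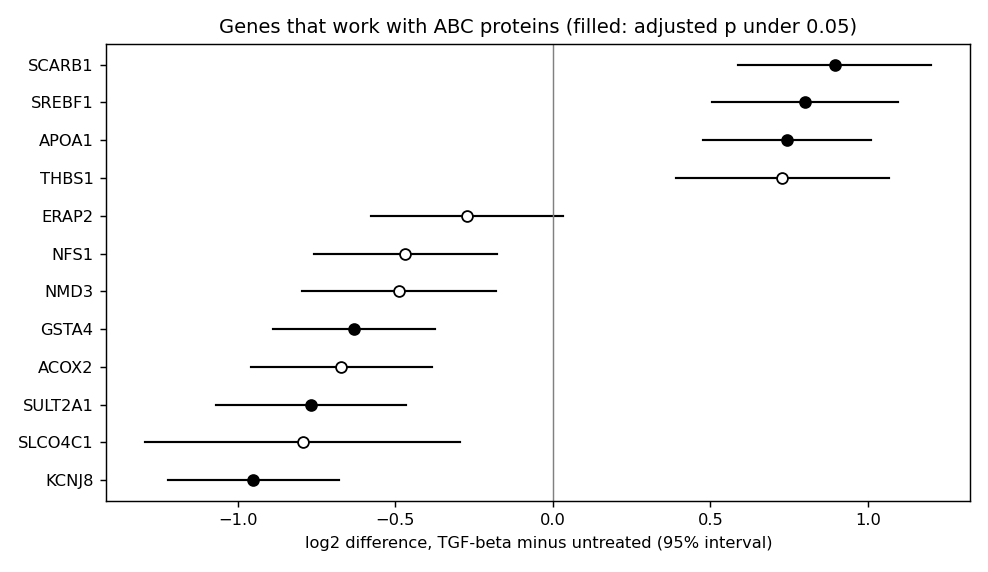
Log2 difference (TGF-beta minus untreated, 95% interval) of the called genes of each list, or of the gene with the smallest p where a list had none. Filled points are the 6 called genes, from SCARB1 at 0.89 to KCNJ8 at -0.95. THBS1 comes from the list of early TGF-beta targets, not of genes that work with ABC proteins.

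The other 6 lists had 0 called. Their counts at an unadjusted p under 0.05 stand beside shares over all genes of 9.35% higher, 8.60% lower and 18.0% in either direction. The solute carrier, ribosome and early target lists, at 20.0%, 19.0% and 15.8% in either direction, lay near the last of these. Solute carriers for bile acids and drugs had 3 lower and 0 higher of 15 at an unadjusted p under 0.05 in limma, led by SLCO4C1, an organic anion transporter, at -0.79 (adjusted p = 0.109). Peroxisomal genes had 5 higher and 3 lower of 28, with ACOX2, a branched-chain oxidase, at -0.67 (adjusted p = 0.0541). Haem and iron-sulphur genes had 1 higher and 1 lower of 21, with NFS1, a cysteine desulphurase, at -0.47. Genes of ribosome recycling and the amino acid kinase pathway had 1 higher and 3 lower of 21, with NMD3, an export adaptor of the large ribosomal subunit, at -0.49. Antigen loading genes, with TAP1, TAP2 and CFTR, which are ABC proteins under other symbols, had 0 of 9, and the smallest p was that of ERAP2 at -0.27 (adjusted p = 0.327). TAP1, TAP2 and CFTR stood at 0.24, 0.15 and -0.015. Early TGF-beta targets had 3 higher and 0 lower of 19, with THBS1 closest to a call (adjusted p = 0.0570).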

How the data were processed

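Total RNA of Huh-7 cells was measured on 4 probe set arrays, labelled per the Affymetrix manual per the labels' protocols. The deposited file holds linear intensities, 1 per probe set and array. Per the submitters' processing notes the authors used the affy package. The background correction and the summary of probes are not stated in these sources. Quartiles were nearly equal between arrays (medians 50.7 to 51.0 with TGF-beta and 50.1 to 50.3 without), so no scaling was added, and log2 was taken with no offset. Of 22215 probe sets, 19724 name 1 gene in the platform annotation, 568 several and 1923 none. Only the first kind was used, with symbols updated by Entrez number through RefSeq (19707 matched), and the brightest probe set stood for each of 12165 genes. Intensities of different probe sets do not rank transcripts. Arrays have no read depth, so their number limits the precision.

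The fit used limma 3.58.1 in R 4.3.3 (lmFit, eBayes, Benjamini-Hochberg adjustment) and was tested on simulated data. It had 7.41 degrees of freedom per gene, of which 5.41 were prior ones borrowed from all genes. Intervals are 95%. Figures used matplotlib 3.10.9. Members, lists and role groups were chosen with earlier results of these data known. Every member is named, with array values for those past an unadjusted p of 0.05 and the brightest of each subfamily, and from each list up to 4 called genes or else the smallest p. ABCC6 was not analysed here. Alternatives changed the normalization, offset, dim filter, probe set choice, variance prior, replicate block and arrays.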

Additional observations from a re-analysis of the deposited data

How the results depend on the processing

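The count of called genes over all 12165 was 63 under quantile normalization, 51 with an offset of 32, 89 of 9124 without genes below the lower quartile of brightness, 616 with an intensity trend and 0 to 523 with 1 array left out (0 without either TGF-beta array in limma, where 1326 and 1563 genes had an unadjusted p under 0.05). For ABC genes it was 1 with the mean of all probe sets (ABCG2) and 0 to 4 with 1 array left out, and it stayed at 0 under median centring, quantile normalization, the offset, the dim filter, the trend, and without the pseudogene symbols, an alternative chosen after seeing the data. With the replicate number as a replicate block 7 ABC genes, 20 genes of the related lists and 1229 of all genes (10.1%) were called. Same-numbered arrays did not deviate together over all genes taken as a whole (correlation 0.0097), and the numbers were not taken as pairs. A single correlation cannot show whether part of the genes deviate together, and the labels do not say what the numbers share. The ABC median lay between -0.010 and 0.041 with 1 array left out. Calls among the related lists, 6 as reported, were 1 under quantile normalization, 1 with the offset, 3 with the dim filter, 15 with the trend and 0 to 12 with 1 array left out; the cause was not tested. KCNJ8 was the one call left under quantile normalization and under the offset.

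Signs turned only for members near 0, none of them called. Quantile normalization gave -0.0030 for ABCA11P, 0.0049 for ABCA6 and -0.0010 for ABCB6, median centring gave -0.012 for ABCG5, and the mean of all probe sets gave 0.0088 for ABCA1, 0.045 for ABCB11 and -0.041 for ABCG1. With 1 array left out, the ranges were -0.30 to 0.23 for ABCA1, -0.24 to 0.34 for ABCA11P, -0.080 to 0.066 for ABCA6, -0.071 to 0.0062 for ABCB11, -0.36 to 0.24 for ABCB4, -0.14 to 0.20 for ABCB6, -0.066 to 0.26 for ABCB8, -0.20 to 0.031 for ABCB9, -0.23 to 0.017 for ABCC9, -0.23 to 0.0041 for ABCE1, -0.011 to 0.057 for ABCG1 and -0.0073 to 0.024 for ABCG5.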
